A study of Mus musculus with 48 samples.

Results

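DNA methylation in the adult mouse amygdala was examined at 10 genes that neuronal activity switches on within minutes: Fos, Fosb, Junb, Egr1, Egr3, Npas4, Nr4a1, Arc, Homer1 and Dusp1. A row of the count table, here called a locus, was assigned to a gene when it overlapped the GRCm38 gene body or the 5 kb on either side of it. Of 187695 loci, 21 met this rule, at 7 of the 10 genes. The rule used the names and positions of genes, not their counts.

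The table counts sequenced fragments of DNA captured for their methylated CpG, so that a higher count stands for more methylated DNA. The mice were 4-month-old males on a C57BL/6N background, born to Tph2+/- parents, and were Tph2+/+, Tph2+/- or Tph2-/-, the last a null mutant. The Tph2 protein hydroxylates tryptophan, by which neurons begin to make serotonin. Litters were either left with the mother (C) or separated from her for 3 h per day on postnatal days 2 to 15 (MS), which gave 6 groups of 8 libraries, 48 in all. All mice were housed singly after weaning and went through behavioural tests before the amygdala was taken, with both hemispheres pooled. No group lacked these tests, so the methylation of untested mice is not known. A shift in the mix of cells in the tissue and a change of methylation within cells cannot be told apart in such bulk DNA.

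Immediate early genes are transcribed without new protein synthesis, because the factors that start them, such as CREB and SRF, are already present and are modified when calcium enters the neuron. Their products fall into transcription factors that carry the response to later genes, proteins that act at the synapse, and feedback inhibitors. Their start sites lie in CpG islands, stretches dense in CpG that are as a rule free of methylation, and their RNA is a usual marker of neurons that were active shortly before, in the amygdala as elsewhere.

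The sequences below show stretches with and without a locus of captured methylated DNA. Reads outside the loci are not in the table, so a stretch with no locus is not shown to lack captured DNA. The promoters (250 bases before the start, from RefSeq for GRCm38.p6) held no locus. The 200-base stretches are those richest in CpG, outside annotated untranslated regions, within some of the loci described below. No sequence of Egr1, whose locus is also described, is printed. CpG is in capitals and all sequences read 5′ to 3′ along the gene.
Fos promoter (GRCm38 chr12:85473640-85473889, plus strand): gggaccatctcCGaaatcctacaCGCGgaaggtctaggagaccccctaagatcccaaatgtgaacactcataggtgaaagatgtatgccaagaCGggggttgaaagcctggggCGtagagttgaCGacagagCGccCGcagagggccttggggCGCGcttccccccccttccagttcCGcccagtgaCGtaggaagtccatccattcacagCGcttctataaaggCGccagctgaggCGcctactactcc
Fos locus 3 (GRCm38 chr12:85476244-85476443, plus strand): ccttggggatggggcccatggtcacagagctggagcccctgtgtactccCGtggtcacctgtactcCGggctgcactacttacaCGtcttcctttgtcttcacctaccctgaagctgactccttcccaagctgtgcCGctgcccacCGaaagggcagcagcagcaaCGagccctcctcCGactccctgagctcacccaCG
Nr4a1 promoter (GRCm38 chr15:101266596-101266845, plus strand): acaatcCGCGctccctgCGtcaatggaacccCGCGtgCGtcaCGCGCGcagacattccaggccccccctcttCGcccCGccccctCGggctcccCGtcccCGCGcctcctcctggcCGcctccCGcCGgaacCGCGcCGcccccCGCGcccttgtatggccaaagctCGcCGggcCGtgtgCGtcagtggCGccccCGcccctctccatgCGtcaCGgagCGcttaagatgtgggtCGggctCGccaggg
Nr4a1 locus 2 (GRCm38 chr15:101270243-101270442, plus strand): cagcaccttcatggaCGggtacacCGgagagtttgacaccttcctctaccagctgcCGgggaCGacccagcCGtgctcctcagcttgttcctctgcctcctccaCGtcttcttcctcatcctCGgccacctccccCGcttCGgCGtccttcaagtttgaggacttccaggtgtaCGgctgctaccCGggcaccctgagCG
Fosb locus 2 (GRCm38 chr7:19307355-19307554, minus strand): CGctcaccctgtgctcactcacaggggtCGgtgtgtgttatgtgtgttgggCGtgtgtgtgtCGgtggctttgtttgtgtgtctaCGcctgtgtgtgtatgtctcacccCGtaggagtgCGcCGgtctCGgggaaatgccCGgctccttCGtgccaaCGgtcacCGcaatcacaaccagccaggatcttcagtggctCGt
Junb promoter (GRCm38 chr8:84978749-84978998, minus strand): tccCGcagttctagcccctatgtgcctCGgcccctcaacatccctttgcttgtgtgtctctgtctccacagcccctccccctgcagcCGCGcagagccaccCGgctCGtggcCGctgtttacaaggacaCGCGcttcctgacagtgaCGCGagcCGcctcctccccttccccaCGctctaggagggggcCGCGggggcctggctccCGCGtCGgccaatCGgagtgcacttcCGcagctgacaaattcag
Junb locus 1 (GRCm38 chr8:84982019-84982218, minus strand): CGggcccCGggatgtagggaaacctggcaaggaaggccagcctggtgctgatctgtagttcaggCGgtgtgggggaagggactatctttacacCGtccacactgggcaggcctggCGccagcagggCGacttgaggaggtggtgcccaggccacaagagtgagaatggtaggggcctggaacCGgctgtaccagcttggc
Homer1 promoter (GRCm38 chr13:93303507-93303756, plus strand): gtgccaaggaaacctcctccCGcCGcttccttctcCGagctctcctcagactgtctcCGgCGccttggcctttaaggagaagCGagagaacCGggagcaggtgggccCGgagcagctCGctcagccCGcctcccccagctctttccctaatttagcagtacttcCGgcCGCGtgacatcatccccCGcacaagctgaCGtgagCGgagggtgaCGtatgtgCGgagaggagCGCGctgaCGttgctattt

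The Nr4a1 promoter held 34 CpG in its 250 bases, the Homer1 promoter 21, the Junb promoter 20 and the Fos promoter 15. Over all 32851 promoters the median was 6, and over the 8 member promoters with a sequence, which belong to 7 of the 10 genes, it was 19.5. The CpG-richest stretch of Fosb locus 2 held 14 CpG in 200 bases, that of Nr4a1 locus 2 held 13, that of Fos locus 3 held 8 and that of Junb locus 1 held 7. The letters TGACG on either strand, the core of the site that CREB binds, were present in 7 of the 8 member promoters against 20.8% of all promoters of the same 300-base length. In the printed ones they occur 2 times in Fos, 1 time in Junb, 3 times in Homer1 and 4 times in Nr4a1. These letters hold a CpG themselves, and the share over all promoters is not matched to the members in CpG content. The full palindrome TGACGTCA, in which TGACG is read on both strands, was present in that of Dusp1 (1.79% of all promoters), and TATAAA in the 300-base windows of Fos, before the start, and of Junb, right after it (13.6%). No member promoter held TGAGTCA (5.20%), GCGTGGGCG (0.612%) or a CArG box (1.63%) in this window.

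No captured locus lay at the start of any of these genes. The nearest member locus lay 1520 bp from an annotated start of a coding transcript, and 0 of the 10 genes had a locus within 1 kb of a start, against 20.8% of 21851 protein-coding genes and 14.4% of those with at least 36 CpG within 500 bp of the start, the lowest number among the members. Within 2 kb, 2 of the 10 genes had one, Fosb and Egr1 (32.3% of protein-coding genes). The members had a median of 75.5 CpG in that window, against 47 over all genes, and 9 of 10 lay above that value.

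No row of the table overlapped the windows of Egr3, Arc and Homer1, which 21.5% of protein-coding genes share. Egr3 encodes a zinc finger factor, Arc a protein that removes AMPA receptors from synapses, and Homer1 a scaffold of metabotropic glutamate receptors. Their windows held 507, 223 and 939 CpG. For Homer1 the window spanned 115.5 kb, and 65 of 836 protein-coding genes with windows of 100 to 130 kb had no locus (median 7). How far the rule by which the table's loci were selected sets this cannot be told from the table.

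The other genes held 1 to 5 loci each. A locus is called over a coding exon when any of its bases overlaps one, so it can also hold intron or untranslated bases. Fos, the AP-1 subunit most used as an activity marker, had 5 (2 upstream, 1 over a coding exon, 2 downstream). Its relative Fosb had 2 (a coding exon and the untranslated end). Junb, a JUN family AP-1 subunit, had 1 upstream of its start. Egr1, a zinc finger factor, had 1 over a coding exon. Npas4, a neuron-specific factor that responds to calcium, had 3 at or beyond its 3′ end. Nr4a1, an orphan nuclear receptor, had 5, of which 2 lay over coding exons. Dusp1, the phosphatase that turns off MAP kinases, had 4, all in an intron of a long transcript model. With the shorter RefSeq model of Dusp1 none would have been counted, and Dusp1 locus 4 overlaps the pseudogene Gm8225, so that reads of a related copy may be included.

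**Figure D1:**
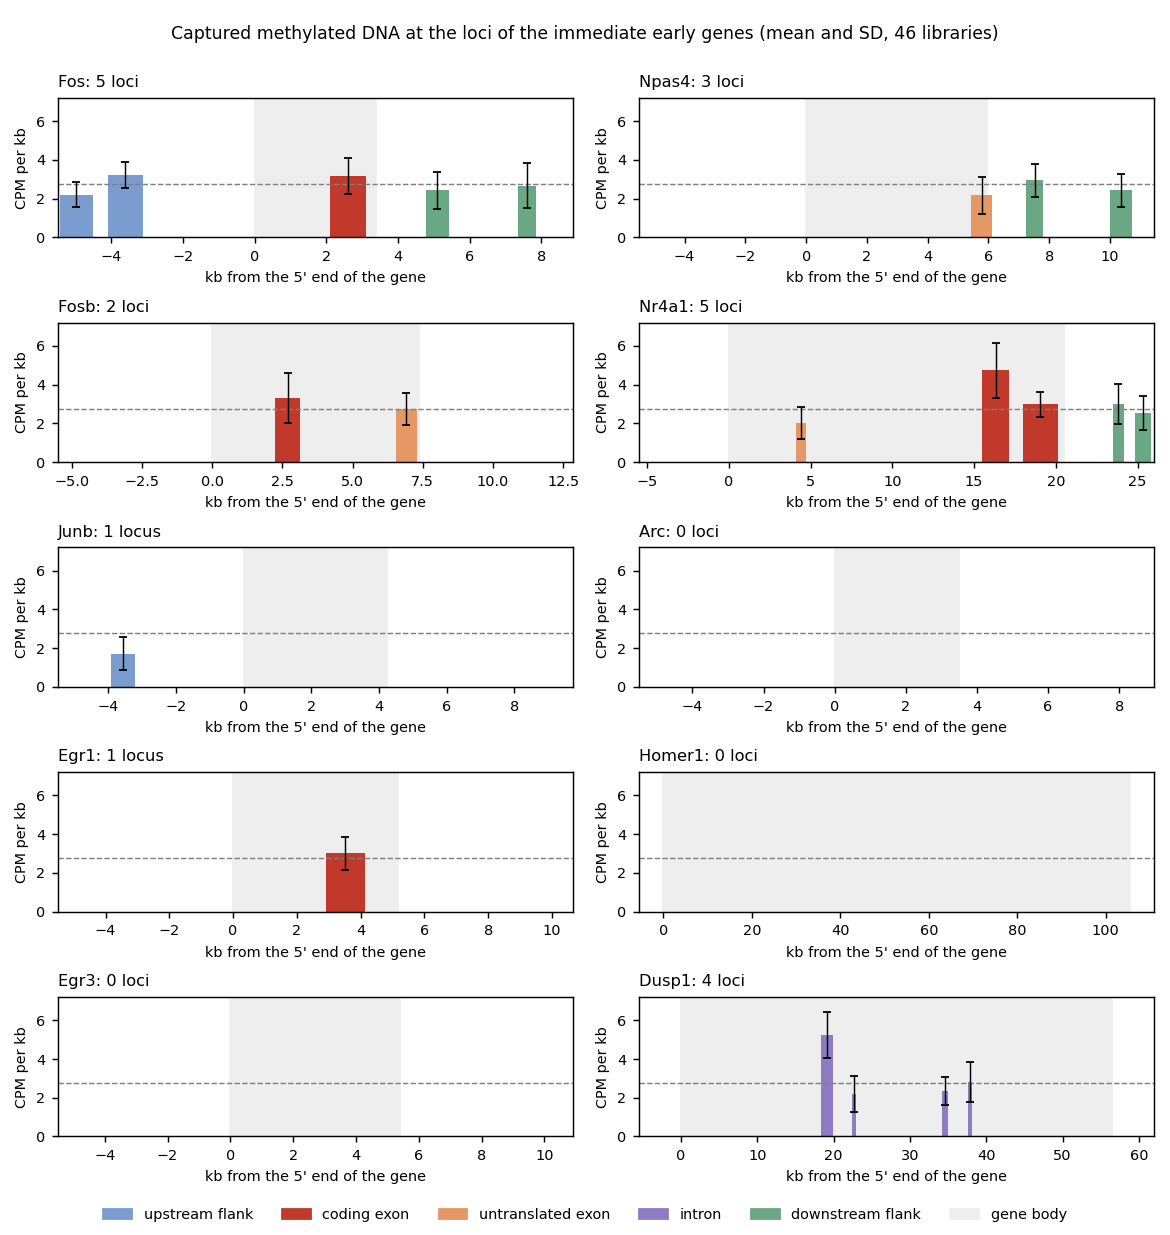
Captured DNA at the loci of the 10 genes, as mean CPM per kb of locus with SD over 46 libraries (y axis), against distance in kb from the 5′ end of the annotated gene (x axis, a separate scale for each gene). Bars are coloured by place and drawn to their width, grey marks the gene body, and the dashed line is the median of all loci. Egr3, Arc and Homer1 are empty, and the bars of Fosb, Egr1, Fos and Nr4a1 within the gene lie over exons.

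Levels are given in CPM, the count as parts per Mcount of its library (an Mcount is a megacount) after scaling with TMM, the trimmed mean of log ratios, over the 46 libraries used in the tests. Per kb of locus the member median was 2.73 CPM, against 2.76 for all loci, so the captured loci of these genes were of ordinary height. Dusp1 locus 4 was highest (5.22 ± 1.18 CPM per kb, SD, n = 46), followed by Nr4a1 locus 2 (4.74 ± 1.41), and these stood above 94.6% and 92.9% of all loci. Junb locus 1 was lowest (1.72 ± 0.856), at or above 0.346% of all loci. The remaining 18 lay between 2.03 and 3.32 CPM per kb, and neighbours in that order differed by less than their SD. As counts, the member loci averaged from 12.9 to 82.8 per library, against a median of 26.4 over all loci, so a single locus carries wide error. CpG density ranged from 0.181 to 4.65 per 100 bp, with a median of 1.88 against 1.82 for all loci.

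Total counts ran from 7.72 to 14.1 Mcounts per library. Replicates 3 and 7 of Tph2-/- MS, which had the smallest totals of their group, were left out of the tests, which leaves 6 libraries in that group. The study also left out 2 libraries of that group, but the sources used here do not name them, so they may be others. Sample numbers separate the conditions, since S1 to S17 and S42 to S48 are C and S18 to S41 are MS, so sample order and MS cannot be told apart. The slope of log2 count on CpG density, per SD of density, was 0.118 ± 0.115 in S18 to S26 (SD, n = 9), -0.024 ± 0.056 in S27 to S41 (n = 15), -0.021 ± 0.036 in S1 to S17 (n = 17) and -0.050 ± 0.040 in S42 to S48 (n = 7). The 15 loci of Tph2, the targeted gene, summed to 40.3 ± 2.98 CPM in the wildtype C group (n = 8) and to 39.7 ± 3.43 CPM in the knockout C group (n = 8), and methylation at that gene does not check the genotype.

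Maternal separation was compared with C over the 3 genotypes and within each. Whole litters were assigned to MS or C and litter is not labelled, so these tests treat any littermates as independent. Over the genotypes 1 of 21 member loci passed the limits used in the study, which ask for a log2 fold change beyond 0.2 at an unadjusted p under 0.01, as did 3.63% of all loci. That locus was Fosb locus 2, over a coding exon (chr7:19306928-19307796), and it was higher in MS. Among the gene sums, in which the counts of a gene's loci are added, 1 of 7 passed, again Fosb, as did 3.29% of 37004 genes. Of the 21 loci 13 were higher and 8 lower in MS, with a median log2 fold change of 0.06 (0.002 over all loci). None passed an adjusted p under 0.05, where edgeR called 24 loci in all. At an unadjusted p under 0.05 edgeR gave 3 of the 21, against 12.2% of all loci. Member counts at the limits were thus near the background.

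Fosb locus 2 had the largest MS difference over the genotypes among the 21 loci. In Tph2+/+ mice the 8 C libraries ranged from 1.16 to 3.85 CPM with a median of 2.45, and the 8 MS libraries from 2.90 to 4.78 with a median of 3.96. In Tph2+/- mice C ranged from 1.05 to 3.50 (median 2.17) and MS from 1.53 to 3.71 (median 3.15). In Tph2-/- mice C ranged from 2.05 to 2.87 (median 2.21) and the 6 MS libraries from 1.95 to 7.98 (median 3.00).

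The groups overlapped in every genotype. All 8 Tph2+/+ MS libraries lay above the C median of that genotype, as did 7 of 8 in Tph2+/- and 5 of 6 in Tph2-/-, and 5, 1 and 4 of them lay above the highest C library. Over the genotypes the mean was 3.45 ± 1.27 CPM in MS (SD, n = 22) and 2.36 ± 0.684 in C (n = 24), and Fosb locus 2 rose by 0.53 on the log2 scale (SE 0.12, edgeR unadjusted p of 4.28e-05, adjusted p of 0.0812). Within genotypes the rise was 0.60 in Tph2+/+ (SE 0.21, edgeR unadjusted p of 0.00419, adjusted p of 0.755) and 0.58 in Tph2-/- (SE 0.22, edgeR unadjusted p of 0.009998, adjusted p of 0.676). The Tph2+/+ value fell short of the limits without C replicate 3 (0.50), C replicate 8 (0.53) or MS replicate 1 (0.55) of that genotype, without S18 to S26 (0.51), and with an offset for CpG density (0.50). The Tph2+/- value was 0.40 (SE 0.22), short of the limit, and the differences between genotypes were -0.20 (SE 0.30, GE1) and -0.02 (SE 0.30, GE2), where GE1 is the MS effect in Tph2+/- minus that in Tph2+/+ and GE2 that in Tph2-/- minus that in Tph2+/+.

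The Tph2-/- rise rested on 1 library. Replicate 2 stood at 7.98 CPM and the next of that group at 3.68, and without it the difference was 0.23 (edgeR unadjusted p of 0.308). It was 0.03 without S18 to S26, 0.38 with the CpG offset, and 0.35 when the pair of that group kept out of the fit was replicates 2 and 3, none of them at the limits. The p-value of 0.009998 lay close to the limit, and only 14 of the 46 fits that left out 1 library kept this call. Those fits used the member loci and an evenly spaced part of the other loci. Their estimate of the spread therefore also differed from that of the main fit. The same library was the highest of all 46 at each of the 5 member loci over coding exons, and at Dusp1 locus 4. Its CpG slope of 0.242 was the steepest among the 46 libraries. The rise over the genotypes passed the limits without any 1 of the 46 libraries, from 0.41 without that replicate 2 to 0.57.

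By sample number, Fosb locus 2 averaged 2.43 ± 0.694 CPM in S1 to S17 (C, n = 17), 2.21 ± 0.682 in S42 to S48 (C, n = 7), 3.13 ± 0.651 in S27 to S41 (MS, n = 14) and 4.03 ± 1.86 in S18 to S26 (MS, n = 8). Without S18 to S26 the rise was 0.34 and no longer at the limits (edgeR unadjusted p of 0.0145), and with an offset for CpG density it was 0.41 and at the limits (unadjusted p of 0.00065). Both runs of MS libraries averaged above both runs of C libraries.

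**Figure D2:**
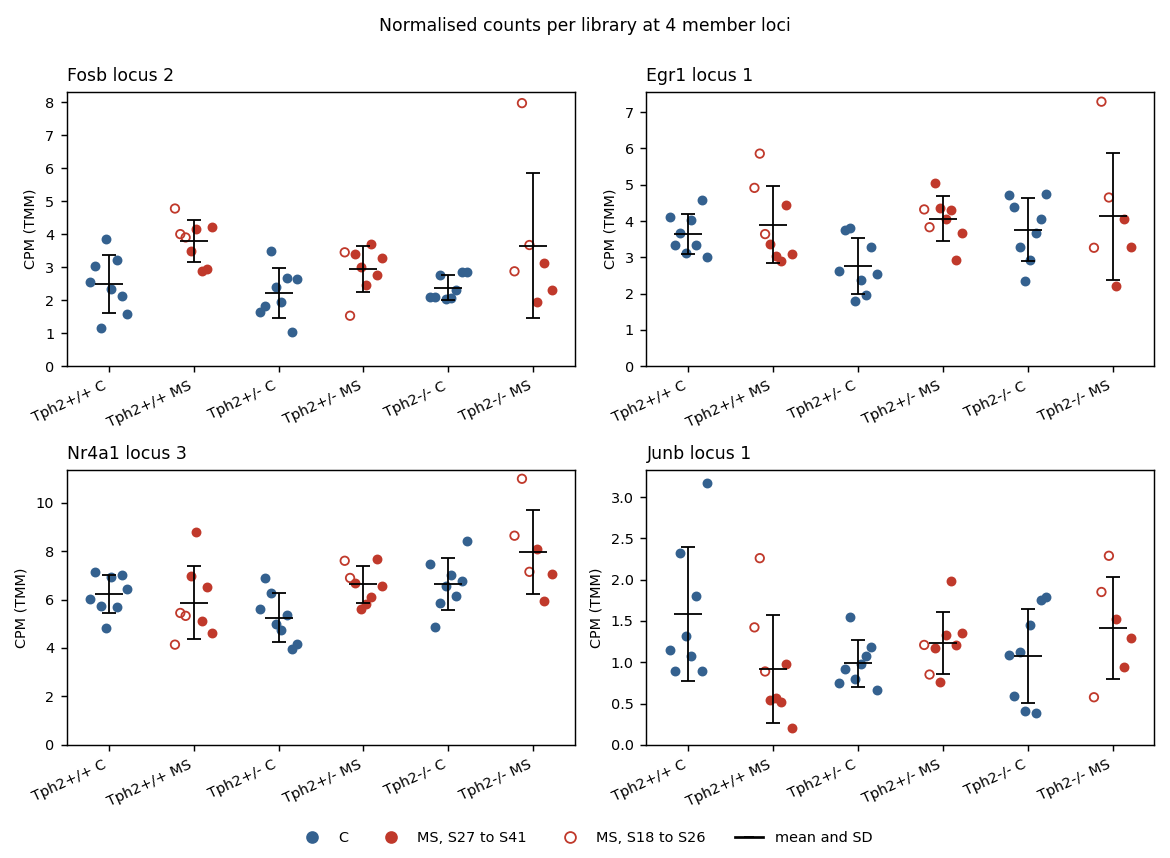
Normalised counts (CPM, y axis) of each library at 4 member loci, by group (x axis). Blue points are C libraries, red points MS libraries (open for sample numbers S18 to S26), and the black lines give the mean and SD. For Fosb locus 2, a single Tph2-/- MS library stands at 7.98 CPM, and the Tph2+/+ MS libraries lie between 2.90 and 4.78.

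The second Fosb locus, over the untranslated end, did not follow. In Tph2+/+ mice it had 1.88 ± 0.437 CPM in C libraries and 2.45 ± 0.289 with MS (SD, n = 8 each), but in Tph2+/- mice 2.17 ± 0.833 without MS and 1.70 ± 0.410 with it, and the log2 fold change over the genotypes was 0.01 (SE 0.13). Summed over both loci, Fosb was higher in MS over the genotypes by 0.31 (SE 0.09, edgeR unadjusted p of 0.000993, adjusted p of 0.105) and in Tph2+/+ by 0.51 (SE 0.15, edgeR unadjusted p of 0.00117, adjusted p of 0.620). The sum over the genotypes fell short of the limits without S18 to S26 (0.21) and with the CpG offset (0.19), while the Tph2+/+ sum stayed at them (0.46 and 0.42). The Tph2+/+ sums ranged from 3.26 to 5.33 CPM in C and from 5.12 to 7.63 in MS, and 7 of 8 MS libraries lay above the highest C library. In Tph2+/- mice the sums were 4.38 ± 0.915 in C and 4.65 ± 0.612 in MS (n = 8 each), a log2 fold change of 0.08 (SE 0.155). The GE1 difference was -0.72 for Fosb locus 1 (SE 0.32, edgeR unadjusted p of 0.0247) and -0.43 for the sum (SE 0.22, edgeR unadjusted p of 0.0508), neither at the limits. In Tph2+/+ 1 of 21 loci and 1 of 7 gene sums were thus at the limits, as were 1.31% of all loci and 1.43% of all gene sums. In Tph2-/- 1 of 21 loci and 0 of 7 sums were (1.48% and 2.16%).

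Egr1, which has 1 locus over a coding exon (chr18:34862727-34863952), was at the limits in Tph2+/- mice. There the 8 C libraries ranged from 1.79 to 3.81 CPM (median 2.57) and the 8 MS libraries from 2.94 to 5.06 (median 4.18). All 8 MS libraries lay above the C median and 6 above the highest C library. Egr1 rose by 0.55 on the log2 scale (SE 0.18, edgeR unadjusted p of 0.00331, adjusted p of 0.9997), and it was the 1 of 21 loci and the 1 of 7 sums at the limits in that genotype, against 0.779% of loci and 0.662% of sums.

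In the other genotypes Egr1 moved less. Tph2+/+ mice had 3.65 ± 0.552 CPM in C and 3.90 ± 1.06 in MS, a log2 fold change of 0.09 (SE 0.18), and Tph2-/- mice 3.76 ± 0.871 in C (n = 8) and 4.12 ± 1.76 in MS (n = 6), a value of 0.11 (SE 0.19). The Tph2+/- C group was the lowest of the 6 groups, and the other C groups lay between 3.65 and 3.76 CPM on average. The difference of MS effects between Tph2+/- and Tph2+/+ was 0.47 (SE 0.26, edgeR unadjusted p of 0.0769 for the sum), not at the limits. The Tph2+/- value was 0.55 without S18 to S26 and 0.46 with the CpG offset, both at the limits. It fell short without C replicate 4 (0.48) or C replicate 6 (0.49) of that genotype. Over the genotypes Egr1 had a log2 fold change of 0.25 (SE 0.11, edgeR unadjusted p of 0.0207). This value was 0.05 without S18 to S26 and 0.07 with the CpG offset.

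Nr4a1 held the most counts of any member, 216.5 ± 49.8 per library over its 5 loci (SD, n = 46). In C and MS its sums were 18.6 ± 1.83 and 20.6 ± 2.24 CPM in Tph2+/+ mice, 17.6 ± 2.56 and 20.1 ± 2.36 CPM in Tph2+/- mice (n = 8 each), and 20.2 ± 2.24 (n = 8) and 22.6 ± 6.596 CPM (n = 6) in Tph2-/- mice. The mean was higher in MS in each genotype, and the groups overlapped in each. Above the C median of their genotype lay 6 of 8 MS libraries in Tph2+/+, 6 of 8 in Tph2+/- and 3 of 6 in Tph2-/-. In Tph2-/- MS, replicate 2 stood at 35.2 CPM and the next library at 24.1, which raised the mean of that group. The medians in Tph2-/- mice were 19.8 CPM in C and 20.3 in MS. The log2 fold change over the genotypes was 0.16 (SE 0.06, edgeR unadjusted p of 0.00682, adjusted p of 0.148), below the size limit of 0.2.

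Its locus nearest to a start, Nr4a1 locus 2 (chr15:101269778-101271375), had a log2 fold change of 0.17 (SE 0.11), with C libraries between 4.65 and 11.3 CPM and MS libraries between 4.50 and 16.9, and the value was -0.10 without S18 to S26. Nr4a1 locus 3, the next exon locus, had 0.16 (SE 0.08, edgeR unadjusted p of 0.0482), and 0.13 without S18 to S26. At that locus Tph2+/- C ranged from 3.94 to 6.87 CPM (median 5.18) and Tph2+/- MS from 5.63 to 7.69 (median 6.63). All 8 of these MS libraries lay above the C median. The Tph2+/- difference was 0.32 (SE 0.14, edgeR unadjusted p of 0.0245), short of the limits. In Tph2+/+ mice the value was -0.08 (SE 0.14), with 3 of 8 MS libraries above the C median. In Tph2-/- mice it was 0.25 (SE 0.15), with 5 of 6 above.

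Fos, for all its use as a marker of activity, differed little. Among C libraries the summed count was 11.2 ± 1.64 CPM in Tph2+/+ mice, 10.6 ± 1.15 in Tph2+/- mice and 11.99 ± 0.943 in Tph2-/- mice (SD, n = 8 each). Among MS libraries it was 11.03 ± 1.27 in Tph2+/+ (n = 8), 11.3 ± 0.990 in Tph2+/- (n = 8) and 11.7 ± 1.79 in Tph2-/- (n = 6). The 6 groups overlapped. The log2 fold change in MS over the genotypes was 0.007 (SE 0.06), with a 95% interval from -0.10 to 0.12. The exon locus of Fos (locus 3, chr12:85475987-85476988) had 0.21 (SE 0.11, edgeR unadjusted p of 0.0621), and 0.05 without S18 to S26, and locus 5 downstream had -0.35 (SE 0.20).

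Junb varied most among libraries. Its single locus (chr8:84981943-84982635) averaged 13.2 counts, with a coefficient of variation of 49.7% over the 46 libraries. In Tph2+/+ mice C ranged from 0.890 to 3.18 CPM (median 1.23) and MS from 0.205 to 2.26 (median 0.727). In Tph2+/- mice C ranged from 0.659 to 1.54 (median 0.948) and MS from 0.756 to 1.98 (median 1.21). In Tph2-/- mice C ranged from 0.385 to 1.79 (median 1.10) and MS from 0.576 to 2.29 (median 1.41).

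MS thus stood below C in the wildtype and above it in both other genotypes, with overlap in all 3. The log2 fold changes were -0.78 (SE 0.33) in Tph2+/+, 0.33 in Tph2+/- (SE 0.34) and 0.38 in Tph2-/- (SE 0.34). As differences between genotypes GE1 was 1.11 (SE 0.47, edgeR unadjusted p of 0.0203, adjusted p of 1) and GE2 was 1.17 (SE 0.48, edgeR unadjusted p of 0.0163, adjusted p of 1). Neither passed the limits, and 0 of 21 loci did in either, against 0.626% and 0.558% of all loci (0.5% and 0.511% of gene sums, with 0 of 7 in each). At an unadjusted p under 0.05 edgeR gave 3 of 21 loci in GE1 (3.71% of all loci) and 1 in GE2 (3.36%). Those in GE1 were the locus of Junb, Fosb locus 1 and Nr4a1 locus 3. Both Junb values passed without S18 to S26 (1.90 and 1.69). Of the 46 fits that left out 1 library, GE1 passed in 1 and GE2 in 4, and in each case the highest value came without Tph2+/+ MS replicate 2 (1.46 and 1.51).

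Npas4 and Dusp1 showed no difference at the limits. Npas4 sums averaged between 4.38 and 5.18 CPM in the 6 groups and Dusp1 sums between 11.3 and 13.5, with log2 fold changes in MS of -0.08 (SE 0.09) and 0.10 (SE 0.06) over the genotypes. The Npas4 locus nearest to its start (locus 3, chr19:4984210-4984875) ranged in Tph2+/+ mice from 0.952 to 3.41 CPM without MS and from 0.615 to 2.66 with it, and had -0.13 (SE 0.17), or -0.52 without S18 to S26 (edgeR unadjusted p of 0.0135, short of the limit). For Dusp1 the nearest was locus 1 (chr17:26523983-26524557), 15464 bp from a start, with 0.18 (SE 0.16).

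**Figure D3:**
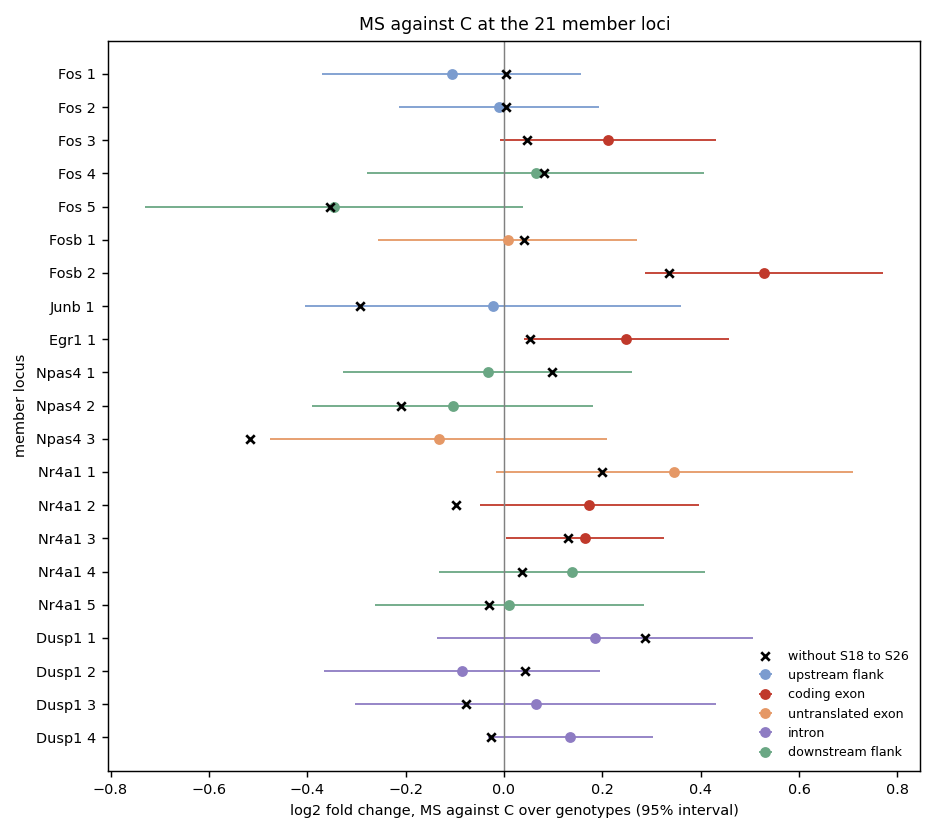
Log2 fold change of MS against C over the genotypes (x axis) at each of the 21 member loci (y axis), coloured by place, with 95% intervals, and the value without sample numbers S18 to S26 as a cross. Fosb locus 2 is highest at 0.53, and all 5 loci over coding exons lie above 0 with the 46 libraries of the main fit, from 0.16 to 0.53.

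The MS value was also read by place within the gene, as a description with no test. The 5 loci over coding exons (Fos locus 3, Fosb locus 2, Egr1 locus 1, Nr4a1 loci 2 and 3) had log2 fold changes from 0.16 to 0.53 with a median of 0.21, and the 3 upstream loci from -0.11 to -0.01. The 6 downstream loci ran from -0.35 to 0.14 and the 4 intron loci of Dusp1 from -0.09 to 0.18. The 3 loci over untranslated exons ran from -0.13 to 0.35, with a median of 0.007, and Nr4a1 locus 1 at 0.35 lay above 4 of the 5 coding-exon loci. Without S18 to S26 the coding-exon values ran from -0.10 at Nr4a1 locus 2 to 0.34 at Fosb locus 2. The exon loci were also dense in CpG, with a median of 2.88 per 100 bp against 1.57 in the downstream loci.

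Over all loci the MS value was highest where CpG was densest. In the densest decile, from 2.71 CpG per 100 bp, the median log2 fold change was 0.14 and 10% of loci were at the limits. In the least dense decile these were -0.03 and 3.92%, the lowest median was that of the third decile (-0.035, with 2.48% at the limits), and from there the median rose with each decile. Without S18 to S26 the median of the densest decile was -0.04. Fosb locus 2 (2.99 CpG per 100 bp), Egr1 (3.51) and Nr4a1 locus 2 (2.88) belong to that decile, as do Dusp1 locus 4, Fosb locus 1 and Npas4 locus 3. Of these 6, Fosb locus 2 and Egr1 lay above the upper quartile of the decile (0.23) and Fosb locus 1 and Npas4 locus 3 below its lower quartile (0.04). With the CpG offset the values over the genotypes were 0.41 at Fosb locus 2, 0.07 at Egr1 and 0.07 at Nr4a1 locus 2. They were 0.03 at Dusp1 locus 4, -0.08 at Fosb locus 1 and -0.36 at Npas4 locus 3. How much of each member's value goes with CpG density was tested only through the offset given above.

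**Figure D4:**
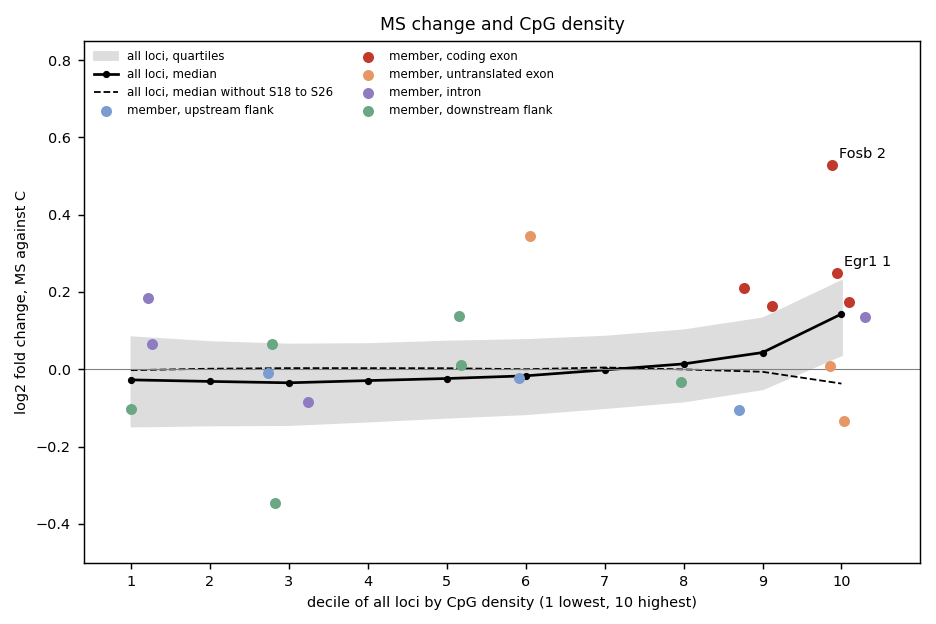
Log2 fold change of MS against C (y axis) by decile of all loci in CpG density (x axis), as the median and quartiles of all loci, the median without sample numbers S18 to S26 (dashed), and the member loci as coloured points, spread sideways for legibility. In the densest decile the median of all loci is 0.14 with the 46 libraries of the main fit and -0.04 without those numbers. Fosb locus 2 stands above the band.

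The genotypes were then compared over both conditions. Against Tph2+/+, 0 of 21 loci and 0 of 7 sums were at the limits in Tph2+/- (0.546% of all loci and 0.389% of all sums). In this comparison edgeR gave no member an unadjusted p under 0.05 (3.47% of all loci). The 7 sums were all lower in Tph2+/-, from -0.21 for Fosb (SE 0.11) to -0.03 for Fos (SE 0.07), with a median of -0.12 against -0.001 over all genes. The 95% interval of the Fosb value ran from -0.42 to 0.0003, so a difference of 0 was not excluded for it or for any other sum.

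In Tph2-/- against Tph2+/+, 0 of 21 loci and 0 of 7 sums were at the limits in edgeR (0.748% and 0.603%). At an unadjusted p under 0.05 edgeR gave 1 of the 21, against 4.08% of all loci. This was Nr4a1 locus 3 (chr15:101272263-101274389), with a log2 fold change of 0.26 (SE 0.10, edgeR unadjusted p of 0.0104). Tph2+/+ libraries ranged from 4.84 to 7.12 CPM in C (median 6.23) and from 4.14 to 8.79 in MS (median 5.39), and Tph2-/- libraries from 4.87 to 8.43 in C (median 6.65) and from 5.95 to 10.99 in MS (median 7.61). The ranges overlapped. DESeq2 placed it just inside the limits (0.27, unadjusted p of 0.00828), so it sits at the edge of what the limits allow. The intervals for the gene sums in this comparison were narrowest for Fos, from -0.05 to 0.22, and widest for Junb, from -0.40 to 0.53.

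**Figure D5:**
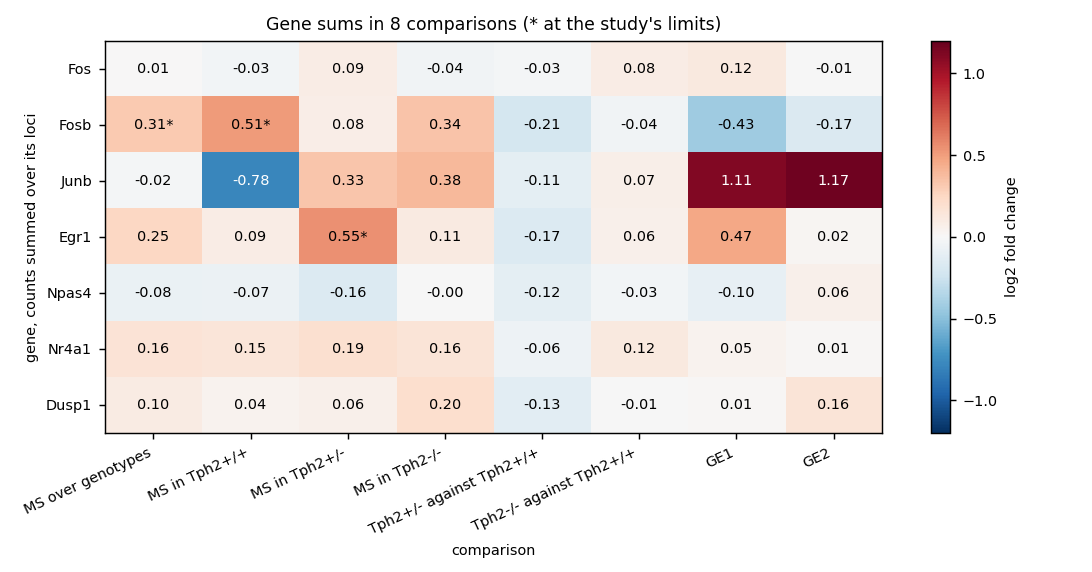
Log2 fold changes of the 7 gene sums (rows) in the 8 comparisons (columns), from blue (lower) to red (higher), with a star where the limits were passed. Stars mark Fosb in MS over genotypes (0.31) and in Tph2+/+ (0.51), and Egr1 in Tph2+/- (0.55), and the darkest cells are those of Junb, whose counts are lowest.

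Over the 8 comparisons 3 of 56 pairs of member sum and comparison were at the limits (5.36%, against 1.19% of 296032 pairs over all genes). All 3 were higher and came from 2 genes, and the comparisons share libraries, so the pairs are not independent. The members and lists were chosen with earlier results of these data known. The share over all genes is not matched to theirs in CpG density. The remainder of the activity response gave lower shares. Of 36 other immediate early genes 26 had a locus, and 3 of 208 pairs were at the limits (1.44%). Plk3, a stress-responsive kinase, was higher in MS (0.22, SE 0.08, from 3 loci, with 9.07 to 10.2 CPM in the C groups and 10.9 to 11.7 in the MS groups on average). Gadd45b, which takes part in active DNA demethylation, was higher in Tph2-/- against Tph2+/+ (0.36, SE 0.12), and its relative Gadd45g was lower in Tph2+/- (-0.25, SE 0.09).

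Of 20 late response genes, which the immediate early factors switch on, 17 had a locus and 1 of 136 pairs was at the limits, Gpr3, a receptor that raises cAMP (0.20, SE 0.07, MS over genotypes). Of 30 upstream regulators 23 had a locus and 1 of 184 pairs was at the limits, Crtc2, a CREB coactivator (0.35, SE 0.12, MS in Tph2-/-). None of these sums passed an adjusted p under 0.05. For MS over genotypes the list medians were 0.10 for the members, 0.08 for the other immediate early genes, 0.05 for the late response genes and 0.03 for the upstream regulators, against 0.02 over all genes.

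Sums over genes that mark cell types were read beside these values. At the limits were 0 of 72 pairs for 9 of 10 neuronal genes with a locus, 0 of 56 for oligodendrocytes, 0 of 48 for astrocytes, 2 of 48 for microglia (Tmem119 at 0.26 in MS in Tph2-/-, and Csf1r at -0.21 in MS in Tph2+/+) and 1 of 32 for endothelium (Pecam1 at -0.21 in GE1). For MS over genotypes their medians lay between -0.02 and 0.05. Methylation at such genes does not count cells, and the part of the cell mix in the member values was not tested.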

How the data were processed

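Methyl-CpG-captured DNA of 48 amygdalae was sequenced as paired 50 bp reads, mapped by the authors to GRCm38 with Bowtie2 2.1.0, and called into peaks with MACS. Reads within overlapping peaks were counted with DiffBind 2.0.9, and the deposited table holds these raw counts per locus, not normalised. Loci were matched to GENCODE vM21 genes. Counts were tested with edgeR 4.0.16 in R 4.3.3 (TMM, quasi-likelihood F test, 1 term per group) on all 187695 loci and on the counts summed for 37004 genes, with Benjamini-Hochberg adjustment over all of them. DESeq2, the tool of the study, was an alternative (version 1.42.0 here). The study left out 2 Tph2-/- MS libraries with low counts, which the sources used here do not name. The 2 lowest totals of that group were left out in their place. The mice are the replicates, and totals ran from 7.72 to 14.1 Mcounts. MS was assigned by litter, so littermates are not independent replicates of it. Litter is not in the labels used here and entered no fit. The members and gene lists were chosen with earlier results of these data known. Named loci were those nearest to each start and those at the limits, and for the other lists at most 3 genes per list and comparison. Alternatives changed normalisation, filter, libraries, block, CpG offset and sample-order terms. RefSeq gene bodies and leaving out each library were added after seeing the data. The fits that left out 1 library used the member loci and an evenly spaced part of the other loci, with library sizes from all loci.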

Additional observations from a re-analysis of the deposited data

Results flagged for a closer look

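In each group of 6 or 8 libraries, the highest and lowest library were compared with the nearest of the others by Dixon's criterion, which chance meets in about 1 in 20 groups. It was met in 13 of 168 groups.

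High values in Tph2-/- MS replicate 2 were 7.98 CPM at Fosb locus 2 (next library 3.68) and 35.2 CPM for the Nr4a1 sum (next 24.1), and a low one was 0.810 CPM at Dusp1 locus 1 (next 1.87). Tph2+/- MS replicate 1 stood high at Nr4a1 locus 2 with 11.1 CPM (next 8.30) and for the Nr4a1 sum with 24.9 CPM (next 20.9). Tph2-/- C replicate 3 stood high at Fosb locus 1 with 3.28 CPM (next 2.41) and for the Fosb sum with 6.04 CPM (next 4.72).

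The remaining values came from separate libraries. Tph2-/- C replicate 1 had 25.3 CPM for the Nr4a1 sum (next 20.9), Tph2-/- C replicate 2 had 16.7 CPM for the Dusp1 sum (next 12.9), and Tph2+/+ C replicate 3 had 3.66 CPM at Fos locus 1 (next 2.15). Tph2-/- MS replicate 1 had 2.50 CPM at Dusp1 locus 3 (next 1.39). Low values were 8.27 CPM for the Fos sum in Tph2-/- MS replicate 8 (next 11.6) and 0.849 CPM at Npas4 locus 2 in Tph2-/- MS replicate 5 (next 1.38).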

How the results depend on the processing

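The Fosb and Egr1 values at the limits kept their direction under every alternative run, and the genes of the other lists were recomputed only as counts. Below the limits Nr4a1 locus 2 in MS over genotypes went from 0.17 to -0.10 without the libraries numbered S18 to S26. Without those libraries, member loci at the limits went from 1 to 0 in MS over genotypes and in MS in Tph2-/-, and from 0 to 1 in GE1 and in GE2, while member gene sums over the 8 comparisons went from 3 to 5. In MS in Tph2+/+ the count stayed at 1, but the locus was then Junb locus 1 (-1.49) and not Fosb locus 2 (0.51). The CpG offset gave 0 in MS in Tph2+/+ and 0 in MS in Tph2-/-. The latter was also 0 with DESeq2, when the libraries left out were Tph2-/- MS replicates 2 and 3, with a term for S42 to S48, and with a replicate block. For Tph2-/- against Tph2+/+ the count was 1 with DESeq2, with its size factors, and with the 5 loci that hold most counts left out of library sizes. The other activity lists had 5 sums at the limits, which became 11 with all 48 libraries and 3 with replicates 2 and 3 left out or with the S42 to S48 term. The cause was not tested.

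Fosb locus 2 in MS over genotypes ran from 0.34 to 0.59 over the alternatives, with an adjusted p of 0.038 in edgeR with all 48 libraries. That fit took back Tph2-/- MS replicates 3 and 7, with CpG slopes of 0.333, the steepest of the 48, and 0.117. It put 10861 loci at the limits in this comparison, against 6816 in the main fit. Leaving out each library gave 0.41 to 0.57 for Fosb locus 2 in MS over genotypes. The range was 0.50 to 0.72 in Tph2+/+, 0.23 to 0.71 in Tph2-/-, and 0.48 to 0.63 for Egr1 in Tph2+/-.

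Replicate numbers did not pair the libraries. Deviations of same-numbered libraries had a median correlation of 0.014 over 110 pairs, and 9 of 46 libraries correlated best with their own number. With the replicate block Fosb locus 2 had 0.52 in MS over genotypes and 0.53 in Tph2-/-, the call lost there, and no other call of a named locus changed.

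Member loci averaged 12.9 to 82.8 counts per library, so small differences were not detectable at this depth. With RefSeq gene bodies the 4 Dusp1 loci would drop out, none of which was at the limits.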
